A study of Homo sapiens with 6 samples.

Results

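The interferon-induced genes described here are 40 genes that cells switch on, or raise, when an interferon reaches them. They were taken as a named list, and every probe set (a group of short probes that reads 1 transcript region) that the platform annotation assigns to a member alone was read. A total of 39 of the 40 genes had such a probe set, 66 probe sets in all, out of 19775 genes and 54613 probe sets that are not controls. STAT2 had none and was not analysed here. Of the 66 probe sets, 63 passed the filter on low signal, and each of the 39 genes kept at least 1.

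The study measured total RNA on 6 one-colour Affymetrix arrays. The parental group held 3 samples of untransfected MDA-MB-231, a human line from an invasive breast tumour, which is labelled with no treatment. The other 3 samples are labelled 231wCFry, which the labels describe as MDA-MB-231 with a stably integrated rat cDNA of 10791 base pairs, the wild-type Cop Fry allele, grown out under puromycin as 1 clone picked because it expressed Fry about as strongly as MCF10A, a non-transformed mammary line. Both groups were grown alike, the labels name no interferon for either, and no clone with an empty vector is described. With 1 clone, the p-values below measure the spread between arrays and not the spread between clones. The series says that samples of a line varied in passage, without giving the passage of any sample, and does not say whether they came from separate cultures. Values are MAS5 signals in arbitrary units, and 3 arrays a group limit the precision of each.

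The arrays labelled 231wCFry went against their label as a derivative of the parental line, and no difference below is assigned to Fry. The neural crest regulator SOX10 read at most 0.8 in the parental group and at least 1376 in the group labelled 231wCFry, while the epithelial keratin KRT19 read at least 1623 and at most 1.5. Unlike the members, the markers were called in a limma fit without the filter on low signal, at an adjusted p under 0.05. Of 7 melanocyte and neural crest markers, 6 had a probe set and 5 of these rose, with a summed signal of 369.5 to 442.1 in the parental group and 4227 to 4605 in the other. Of these MITF already read 399 ± 39.8 in the parental group (1129 ± 65.3 in the other, SD, n = 3). MLANA and TYR rose but stayed dim, at 35.5 ± 25.2 and 25.5 ± 8.61 in the second group. PMEL did not pass, at 10.8 ± 5.63 and 5.17 ± 2.67. All 5 epithelial markers had a probe set and 4 fell (summed signal 6172 to 6841 against 1514 to 1626). KRT18 fell but stayed bright, from 2992 ± 191 to 1507 ± 56.5 (SD, n = 3). CDH1 did not pass and was dim in both groups, at 9.73 ± 3.29 and 6.73 ± 1.66. Of 7 immune markers, 6 had a probe set and summed to 82.7 to 98.2 and 25.0 to 37.6. Of these LYZ rose (8.53 ± 3.35 to 18.7 ± 4.83), CSF1R fell (59.2 ± 8.52 to 5.27 ± 2.80) and CD14 fell (15.2 ± 2.55 to 1.23 ± 1.53, SD, n = 3). The leukocyte antigen PTPRC did not pass, at 4.63 ± 1.21 and 2.5 ± 1.31 (SD, n = 3), nor did the T cell gene CD3E, at 0.93 ± 0.47 and 0.23 ± 0.15. The 3 endothelial markers summed to 158.5 to 275.2 and 14.5 to 20.8, with PECAM1 fallen. The 2 mesenchymal markers summed to 6242 to 6902 and 6936 to 8638, with CD44 risen close to the threshold (limma adjusted p = 0.0497). Human FRY stayed dim, with its 4 probe sets at 9.8 or less on every array, and these probes do not check for the rat cDNA. The GAPDH control's 3' to 5' signal ratio, which rises as RNA degrades, lay between 1.36 and 1.39 in the parental group and between 1.24 and 1.33 in the other. The part of cell identity and of RNA quality in the differences below was not tested.

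Interferons are secreted by cells that sense viral nucleic acid. Type I interferon binds the receptor IFNAR1 and IFNAR2, whose kinases JAK1 and TYK2 activate STAT proteins. With IRF9 these form a complex that binds the interferon-stimulated response element, a short DNA motif in front of most genes of this list, while interferon gamma acts mainly through another motif, the gamma-activated site. The products bind viral RNA, block entry at membranes, attach the modifier ISG15 to proteins, or feed back on the signal. Many tumour lines keep some of these genes on without added interferon.

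The response element was looked for in the RefSeq promoter windows of GRCh38.p14, which run from 250 bases before to 50 after a transcript start, as GAAA and GAAA parted by any 2 bases on either strand. Such letters stood in the windows of 21 of the 32 members that have a window, against 4.38% of all 27305 genes with one. STAT2 is 1 of these 32. By the array result given below for the other 31, the letters stood in 13 of 16 members that fell, 4 of 7 that rose and 4 of 8 that did not pass. The gamma-activated site, TTC and GAA parted by any 3 bases, stood in 9 of 32 members, against 9.38% of all genes, and in 4 of 7 that rose, 3 of 16 that fell and 2 of 8 that did not pass. A match of letters is a description and not a shown binding site. The stretches printed here are examples and do not keep the balance of those counts. Of the members with the response element, they are of 4 of the 13 that fell, 3 of the 4 that rose and 1 of the 4 that did not pass. They read 5′ to 3′ on the strand of the gene, and capitals mark the matching letters.
IFI27 (fell, chr14:94110598-94110667, plus strand): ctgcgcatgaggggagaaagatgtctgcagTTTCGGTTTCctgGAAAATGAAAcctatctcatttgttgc
IFIT1 (fell, chr10:89392477-89392546, plus strand): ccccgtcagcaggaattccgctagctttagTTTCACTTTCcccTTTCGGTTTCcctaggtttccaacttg
ISG15 (fell, chr1:1013354-1013423, plus strand): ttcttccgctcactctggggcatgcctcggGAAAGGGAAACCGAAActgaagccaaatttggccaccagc
SAMD9 (fell, chr7:93118076-93118145, minus strand): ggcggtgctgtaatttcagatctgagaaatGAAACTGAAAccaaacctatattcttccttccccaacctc
BST2 (rose, chr19:17405721-17405790, minus strand): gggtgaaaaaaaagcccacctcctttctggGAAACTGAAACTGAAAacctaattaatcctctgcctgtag
OAS3 (rose, chr12:112938301-112938370, plus strand): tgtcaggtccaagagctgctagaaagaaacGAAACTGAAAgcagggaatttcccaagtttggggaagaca
LGALS3BP (rose, chr17:78979942-78980011, minus strand): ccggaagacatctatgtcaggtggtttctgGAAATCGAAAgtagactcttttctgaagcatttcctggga
ISG20 (did not pass, chr15:88638917-88638986, plus strand): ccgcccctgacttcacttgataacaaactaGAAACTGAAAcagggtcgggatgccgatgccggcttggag
In ISG15 and in BST2 a pair of matches overlaps and shares its central GAAA. Among the stretches printed, the 10 letters GAAACTGAAA are identical in SAMD9, which fell, in BST2 and OAS3, which rose, and in ISG20, which did not pass. The same letters also stood before IFITM1, and on the other strand before IFI44, GBP1, RSAD2 and IFIT3, all of which fell.

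In the samples labelled 231wCFry, 21 of the 39 genes fell, 10 rose and 8 did not pass. IFI27, IFITM1, RSAD2, SAMD9L and IFIT1 had the largest falls on the log2(signal + 16) scale, and MX2 and OAS1 the largest rises. This order moved with the pseudocount. At 64, RSAD2 (-1.97) ranked behind IFITM2 (-2.45), SAMD9 (-2.07) and ISG15 (-2.04), and OAS1 (1.01) behind BST2 (1.06). IFITM2 there also passed IFIT1 (-2.365) and SAMD9L (-2.10). At 1, RSAD2 (-4.435) ranked ahead of IFITM1 (-3.96). The counts above are of calls at an adjusted p under 0.05 (limma, Benjamini-Hochberg over 32768 probe sets), each gene read by its brightest probe set. The same rule called 32.9% of all 13606 tested genes lower and 33.9% higher, so the share of members that fell, 53.8%, lay above that of all genes, and the share that rose, 25.6%, below it. Over probe sets, 34 of the 63 that were tested fell and 14 rose, where 32.2% and 30.2% of all tested probe sets did. The groups did not overlap in 32 of 39 members and in 73.0% of all genes. A fall of at least 1 on the log2 scale was called for 15 members (10.7% of all genes) and a rise of that size for 4 (12.2%). The median log2 difference was -0.64 over the members and 0.01 over all genes. It was -0.39 when all tested probe sets of a gene were averaged. It was -0.28 over the 31 members left when probe set types prone to cross-hybridise were dropped. That setting left out IFIT5, IFITM1, IFITM2, IFITM3, ISG15 and IRF7, which fell, with IFI35 and IFI16, and of the 31 it read only IFI44 by another probe set.

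**Figure D1:**
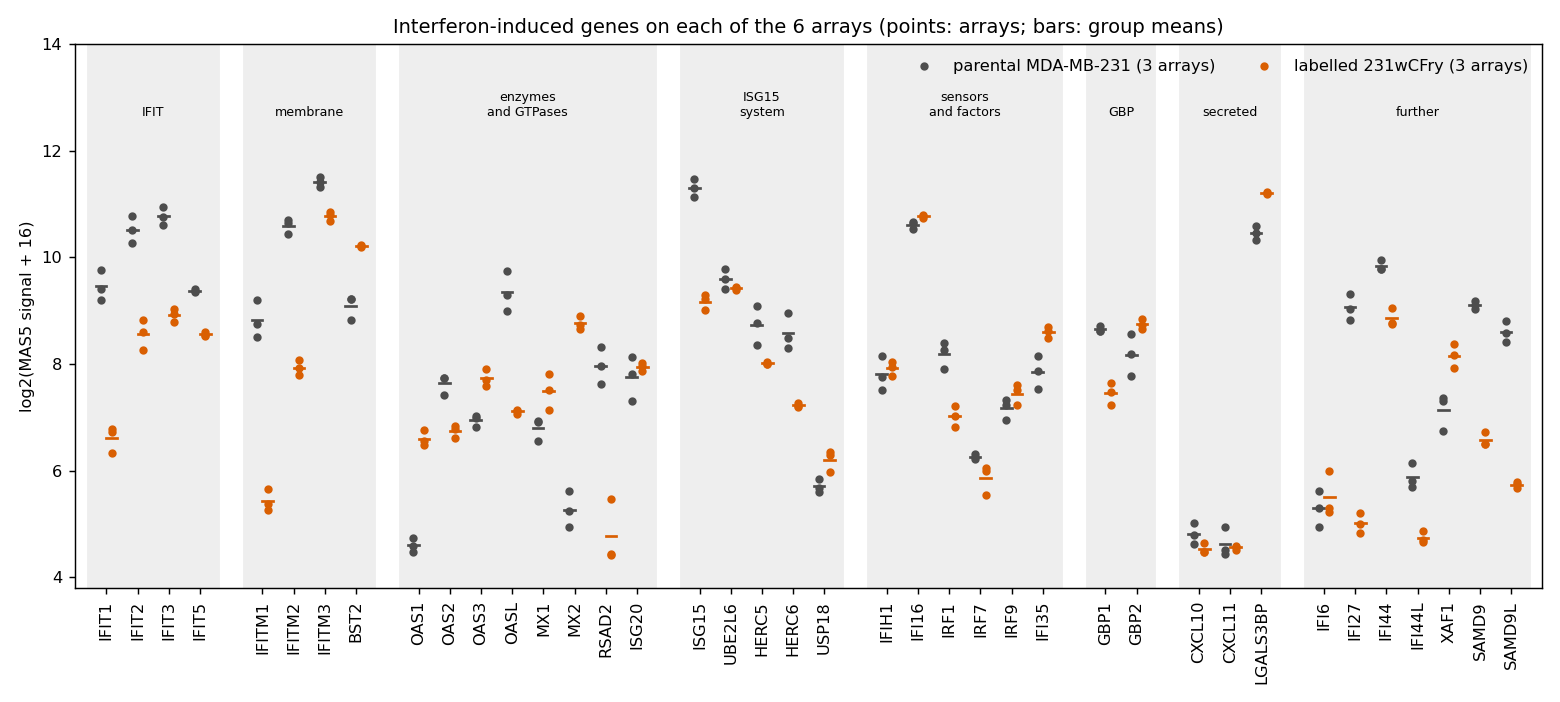
Signal of the 39 interferon-induced genes on each array, as log2(MAS5 signal + 16), with 3 parental points in grey and 3 points labelled 231wCFry in orange per gene, short bars for group means, and genes placed by role. All 4 IFIT genes lie lower in the orange group, while BST2, OAS1 and MX2 lie higher. Levels of different genes are read by different probes and are not comparable with each other.

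All 4 IFIT genes fell. Their proteins recognise viral RNA ends and block its translation. IFIT1 read 665.3, 855.5 and 573.8 on parental arrays 1, 2 and 3 and 93.7, 90 and 64.8 on the arrays labelled 231wCFry. The lowest parental array stood far above the highest of the other group, with a log2 difference of -2.85 (SE 0.16, limma adjusted p = 4.72e-07). IFIT2 went from 1443.1, 1741.2 and 1214.0 to 374.5, 437.2 and 292.0 (log2 difference -1.95, SE 0.17), and IFIT3 from 1717.5, 1942.5 and 1542.2 to 505.4, 476.6 and 427.5 (-1.85, SE 0.11). IFIT5 moved least of the 4, from 647.0, 661.2 and 640.9 to 353.0, 371.3 and 359.0 (-0.82, SE 0.08). Second probe sets of IFIT2, IFIT3 and IFIT5 fell as well, and no IFIT probe set had overlapping groups.

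Among membrane proteins, the 3 IFITM genes fell and BST2 rose. IFITM proteins stop viral particles from fusing with the cell membrane. IFITM1 read 415.5, 569.0 and 349.3 on the parental arrays and 34.8, 25.3 and 22.3 on the others (log2 difference -3.39, SE 0.17, limma adjusted p = 2.16e-07). IFITM2 read 1591.6, 1646.9 and 1370.1 against 204.7, 227.8 and 255.6 (-2.66, SE 0.11), whereas IFITM3 read 2707, 2904 and 2549 against 1826, 1758 and 1627 (-0.64, SE 0.09). Each IFITM gene was read by a probe set of a type that can bind close paralogs, and the family is nearly identical in parts, so how the signal divides between the 3 genes is uncertain. BST2, or tetherin, holds budding virus at the cell surface. It went from 579.7, 578.0 and 435.0 to 1165.1, 1157.6 and 1189.4, a rise in which every array labelled 231wCFry read near 1170 (log2 difference 1.13, SE 0.12, adjusted p = 3.13e-05).

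The antiviral enzymes and GTPases divided, with 4 risen, 3 fallen and 1 not passed. The share that fell, 37.5%, was near the 32.9% of all tested genes, and 50% rose against 33.9% of all. MX2, a dynamin-like GTPase that acts against viruses at the nuclear pore, had the largest rise of all members. It read 21.7, 32.9 and 14.8 on the parental arrays and 411.4, 460.7 and 388.0 on the others (log2 difference 3.50, SE 0.16, limma adjusted p = 8.70e-08), a ratio of mean signals of 18.2. MX1, its neighbour and paralog, read 103.9, 106.5 and 78.6 against 208.7, 166.5 and 124.6. The rise of MX1 was smaller (0.68, SE 0.17, adjusted p = 0.0066), and its lowest value in the second group stood only a little above the highest parental value.

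OAS enzymes make 2',5'-linked oligoadenylate when they meet double-stranded RNA, which activates the ribonuclease RNase L. OAS1 read 8.2, 10.6 and 6.2 in the parental group, close to the array medians of 10.4 to 12.1, and 92.6, 73.6 and 78.0 in the other (log2 difference 2.0, SE 0.11, adjusted p = 3.49e-07, limma). With so dim a parental signal the size of this difference moved with the pseudocount, to 3.16 at 1 and 1.01 at 64. OAS3 also rose, from 96.6, 111.2 and 114.8 to 223.7, 191.1 and 176.8 (0.78, SE 0.11), while its dim second probe set did not pass and the mean over both differed by 0.34. OAS2 fell, from 198.5, 198.6 and 154.9 to 98.6, 93.4 and 81.9 (-0.89, SE 0.12), and the mean over its 3 probe sets differed by -0.39. OASL, a family member without the enzyme activity that enhances RNA sensing, fell from 612.1, 842.9 and 494.4 to 124.0, 124.7 and 118.1 (-2.23, SE 0.17, adjusted p = 2.70e-06). The 3 enzymes are thus not alike in these samples, although OAS1, OAS3 and OAS2 lie next to each other on chromosome 12.

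RSAD2, or viperin, makes a chain-terminating nucleotide. It read 232.1, 304.8 and 182.1 on the parental arrays and 5.7, 28.6 and 5.5 on the others (log2 difference -3.19, SE 0.28, limma adjusted p = 7.93e-06). The second array labelled 231wCFry stood above its companions here, and the second RSAD2 probe set read 5.2, 7.1 and 5.6 in that group without such a gap. ISG20, an exonuclease, did not pass on either probe set. Its parental values of 209.0, 265.2 and 142.0 enclosed the 242.9, 233.9 and 218.7 of the other group.

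In the ISG15 system, ISG15 and the ligase genes HERC5 and HERC6 fell, USP18 rose and UBE2L6 did not pass. ISG15, a ubiquitin-like modifier, read 2495, 2831 and 2237 on the parental arrays and 609.0, 577.8 and 499.1 on the others (log2 difference -2.13, SE 0.12, limma adjusted p = 3.51e-07). HERC5, the ligase that attaches ISG15, fell from 418.4, 530.8 and 310.4 to 245.4, 241.3 and 239.6 (-0.72, SE 0.16). That difference was smaller than the parental range of 0.74, although the groups did not overlap. HERC6 fell from 345.3, 481.1 and 300.1 to 137.4, 133.0 and 130.9 (-1.36, SE 0.15). UBE2L6, the conjugating enzyme of the pathway, read 753.8, 869.9 and 667.0 against 685.0, 676.2 and 651.2 (adjusted p = 0.19). USP18, which removes ISG15 and dampens the receptor, rose at a low signal from 36.4 ± 4.69 to 58.4 ± 10.2 (SD, n = 3, 0.50, SE 0.12, adjusted p = 0.0059), and by 0.28 at a pseudocount of 64.

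**Figure D2:**
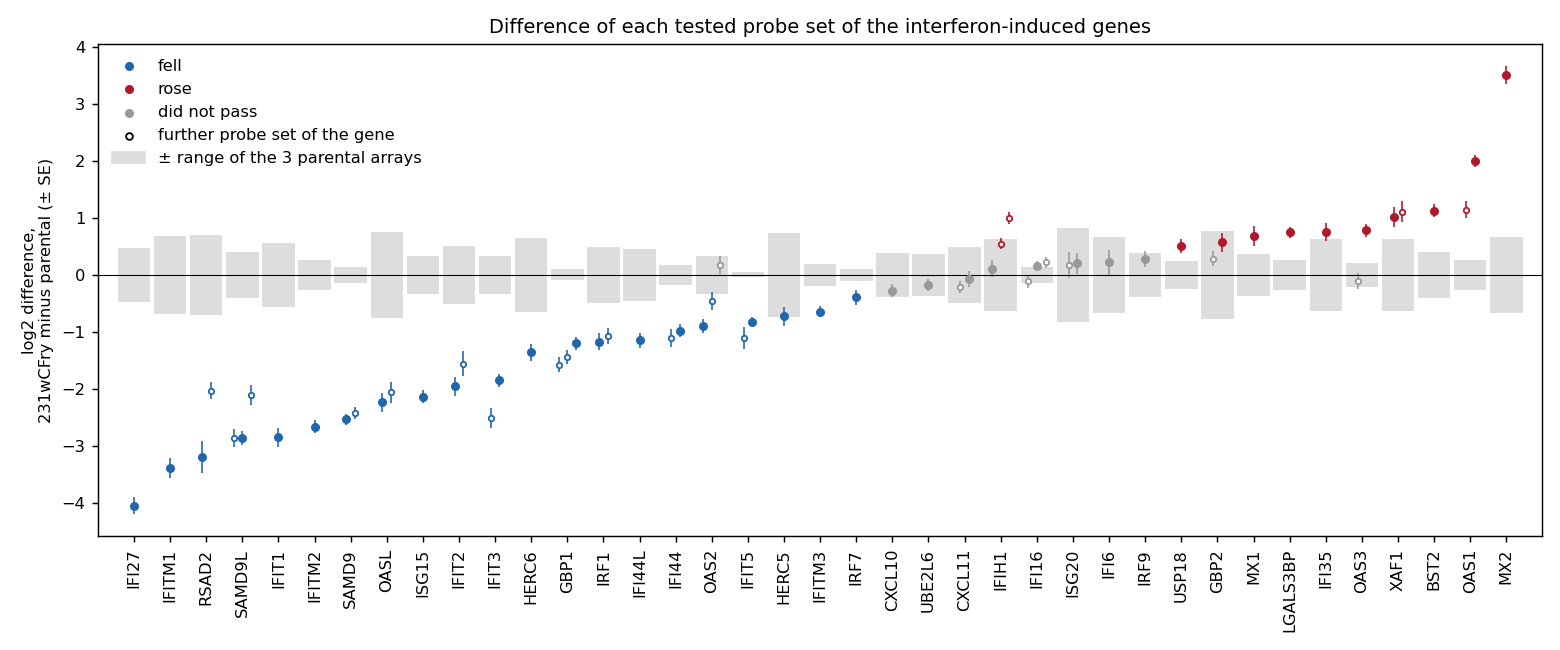
Log2 difference (231wCFry minus parental, with limma's standard error) of every tested probe set of the 39 genes, ordered from IFI27 at -4.05 to MX2 at 3.50, with filled points for the brightest probe set of a gene and open points for its others. Grey blocks span the range of the 3 parental arrays on either side of 0. No gene has probe sets called in both directions.

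Of 6 sensors and transcription factors tested, 2 fell, 1 rose and 3 did not pass. The share that fell, 33.3%, was near the 32.9% of all tested genes, and 16.7% rose against 33.9% of all. IRF1, a factor induced mainly by interferon gamma, fell from 292.0, 322.5 and 225.4 to 132.7, 96.5 and 115.0 (log2 difference -1.17, SE 0.15, limma adjusted p = 9.51e-05), and its second probe set fell as well. IRF7, which amplifies the type I response, read 60.8 ± 2.76 and 43.1 ± 10.6 (SD, n = 3, adjusted p = 0.028). Its call was lost without parental replicate 1, 2 or 3 and without the third array labelled 231wCFry (adjusted p = 0.051, 0.075, 0.056 and 0.067), and with a pseudocount of 1 (0.064). Its difference of -0.39 was -0.24 without that array and -0.23 at a pseudocount of 64. IRF9, the DNA-binding part of the type I complex, read 134.5, 144.7 and 107.0 against 165.8, 178.8 and 133.7, with overlapping groups (0.28, SE 0.14, adjusted p = 0.10). It passed without the third array labelled 231wCFry (adjusted p = 0.037) and with replicate number as a block (0.027).

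IFI35, a partner of the signalling protein NMI, rose from 217.5, 269.3 and 168.2 to 400.9, 378.7 and 342.3 (log2 difference 0.75, SE 0.15, adjusted p = 0.0019, limma). IFI16, a sensor of DNA in the nucleus, had 3 probe sets and none passed. The brightest read 1615.6, 1466.5 and 1578.5 against 1769.7, 1747.5 and 1681.3, without overlap and with a log2 difference of 0.16 (SE 0.09), which passed at a pseudocount of 64 (0.15, limma adjusted p = 0.046). The other probe sets of IFI16 differed by 0.22 (SE 0.10), without overlap, and by -0.11 (SE 0.11), with overlap. The mean over its 3 probe sets did not pass (0.09, limma adjusted p = 0.298). IFIH1, which encodes the RNA sensor MDA5, gave mixed readings. Its brightest probe set, at 200.4, 268.2 and 167.0 against 248.3, 230.0 and 202.6, did not pass (0.11, SE 0.16, adjusted p = 0.56), while its dim probe sets, at most 33.7 on any array, rose (0.99, SE 0.11, and 0.55, SE 0.10). The mean over its 3 probe sets passed as well (0.55, adjusted p = 0.0015).

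The guanylate-binding proteins, GTPases that attack vacuoles holding pathogens, moved in opposite directions. GBP1 fell from 379.5, 402.1 and 375.1 to 161.2, 134.5 and 183.8 (log2 difference -1.20, SE 0.11, limma adjusted p = 1.51e-05), as did its other tested probe sets. GBP2, its neighbour on chromosome 1, rose from 275.7, 360.1 and 204.2 to 445.2, 407.1 and 389.2 (0.57, SE 0.17, adjusted p = 0.017). The dimmer second probe set of GBP2 did not pass and had overlapping groups (0.29, SE 0.13, limma adjusted p = 0.078). The rise of GBP2 was smaller than its parental range of 0.77, and its call was lost without the first array labelled 231wCFry (adjusted p = 0.052) and with a pseudocount of 1 (0.053). Without parental replicate 3 its difference was 0.37.

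Of the secreted products, the chemokines CXCL10 and CXCL11, which draw T cells, were dim in both groups. CXCL10 read 12.3 ± 3.77 and 7.27 ± 1.5 (SD, n = 3, limma adjusted p = 0.062) and CXCL11 9.13 ± 4.93 and 7.63 ± 0.74 (adjusted p = 0.66), all near the median of all probe sets. CXCL10 passed as lower without parental replicate 3 (adjusted p = 0.021) and with arrays centred on their median (0.047). LGALS3BP, a secreted glycoprotein that binds galectins, rose from 1390, 1530 and 1271 to 2392, 2343 and 2306 (log2 difference 0.75, SE 0.10, adjusted p = 1.16e-04). The lowest array labelled 231wCFry lay well above the highest parental array.

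Among the further members, 5 fell, 1 rose and 1 did not pass. By comparison, 32.9% of all tested genes fell and 33.9% rose. IFI27, a small mitochondrial protein, had the largest fall of all members. It read 509.8, 620.1 and 439.9 on the parental arrays and 16, 21.1 and 12.5 on the others (log2 difference -4.05, SE 0.14, limma adjusted p = 1.62e-08), a ratio of mean signals of 31.6. SAMD9 and SAMD9L, paralogous growth inhibitors next to each other on chromosome 7, fell together. SAMD9 went from 508.4, 565.1 and 538.3 to 90.2, 74.3 and 74.8 (-2.53, SE 0.10) and SAMD9L from 367.7, 433.4 and 322.9 to 38.1, 34.9 and 39.5 (-2.86, SE 0.12), and all 5 probe sets of the pair passed.

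IFI44 fell from 859.8, 975.1 and 870.0 to 517.3, 422.5 and 416.7 (log2 difference -0.98, SE 0.11), and its neighbour IFI44L, a dimmer reading, from 43.5 ± 10.1 to 10.7 ± 2.08 (SD, n = 3, -1.14, SE 0.13), with -1.92 at a pseudocount of 1 and -0.52 at 64. XAF1, which opposes the apoptosis inhibitor XIAP, rose from 149.2, 142.2 and 90.7 to 318.0, 270.4 and 226.9 (1.02, SE 0.18, adjusted p = 8.11e-04, limma), and a second tested probe set rose by 1.11. IFI6, a mitochondrial and endoplasmic reticulum protein, was dim at 23.9 ± 9.10 and 31.1 ± 14.8 and did not pass (adjusted p = 0.41). Its second array labelled 231wCFry read 48.2 against 21.5 and 23.7 on the others.

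Position on the chromosome was compared with direction. In the order of protein-coding genes in RefSeq, members with at most 2 genes between were sought, which gave 13 pairs, all adjacent except IFIT3 and IFIT1 with 1 gene between. In 8 pairs both genes fell (the IFIT, IFITM, HERC and SAMD9 clusters and IFI44L with IFI44), in 2 both rose (OAS1 with OAS3, MX2 with MX1), in 2 they moved oppositely (GBP1 with GBP2, OAS3 with OAS2), and in 1 neither passed (CXCL10 with CXCL11). Of all 8652 next-door pairs with both genes tested, 15.0% both fell, 14.7% both rose and 16.1% moved oppositely. These shares are over all genes, of which 32.9% fell, against 53.8% of the members. They therefore do not set position apart from the falls of the list as a whole. Pairs in the IFIT, IFITM and OAS clusters share genes and are not independent. Neighbours in these clusters are also paralogs, so position and sequence likeness cannot be told apart here. Of the 19 members with several tested probe sets, 15 had the same call on all of them and none was called in both directions.

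The parental arrays differed from each other in these genes. Of the 39 members, 33 read highest on parental array 2 and 32 read lowest on parental array 3, where 32.2% and 36.8% of all tested genes did. All 21 members that fell were highest on parental array 2, and so were 6 of the 10 that rose and 6 of the 8 that did not pass. Array 2 exceeded array 3 in 36 of 39 members (51.2% of all genes), with a median ratio of 1.31 after 16 was added to each signal (1.0 over all genes). The exceptions were OAS3, USP18 and IFI16. The median member stood 0.17 above the parental mean on array 2 and 0.22 below it on array 3 on the log2 scale, where the median of all genes lay within 0.01 on each array. The median range of the 3 parental arrays was 0.40 for the members and 0.22 for all genes.

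**Figure D3:**
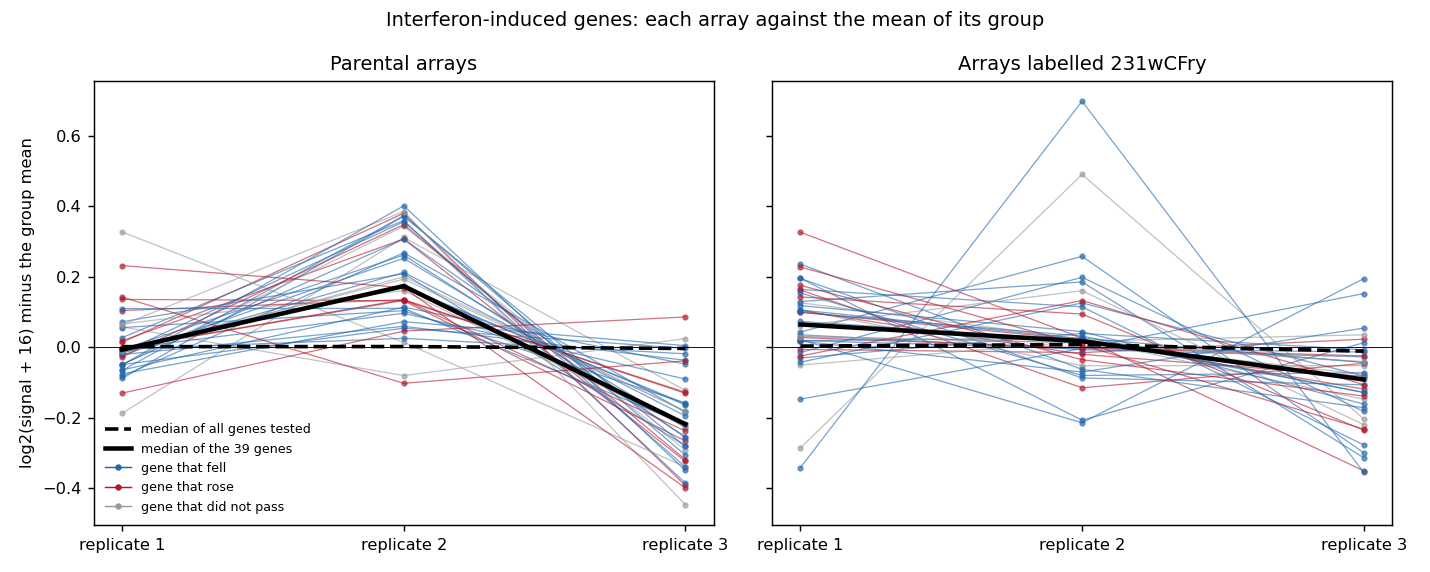
Each of the 39 genes on each array as log2(signal + 16) minus the mean of its group, for the parental arrays (left) and the arrays labelled 231wCFry (right), with thin lines joining the values of 1 gene, a thick line for the median of the 39 genes and a dashed line for the median of all genes tested. Most members lie above 0 on parental array 2 and below 0 on parental array 3, whether they fell, rose or did not pass between groups. The replicates have no order.

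A smaller spread of the same kind appeared in the other group. There 24 of 39 members were highest on array 1 and 28 lowest on array 3, where 30.2% and 40.1% of all genes were, and the median member stood 0.06 above and 0.09 below the group mean. The ratio of 3' to 5' signal of the beta-actin control was 2.76, 3.0 and 2.59 on parental arrays 1, 2 and 3 and 2.65, 2.45 and 2.6 on the arrays labelled 231wCFry, so in the parental group it was also highest on array 2 and lowest on array 3. The GAPDH ratio did not share that order, at 1.39, 1.36 and 1.36 on parental arrays 1, 2 and 3. Their part in the spread was not tested. The mean signal after trimming 2% at each end was equal on all 6 arrays. Between groups, 30 of the 39 members differed by more than the range of their parental arrays, a share near the 72.7% of all genes. Leaving out each array in turn gave 9 to 11 members that rose and 20 or 21 that fell.

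Other interferon-induced genes were read from a separate list of 40, of which 36 were tested. In that list 16 fell (44.4%, against 32.9% of all genes), 11 rose (30.6%, near the 33.9% of all genes) and 9 did not pass, with a median log2 difference of -0.19. PLSCR4, a scramblase-family protein, fell from 432.5, 525.9 and 436.0 to 71.5, 75.6 and 59.0 (-2.50, SE 0.12, limma adjusted p = 1.04e-07), and the helicase-like DDX60 from 757.3, 899.8 and 652.1 to 197.5, 175.6 and 165.5 (-2.0, SE 0.13). GBP3 fell from 972.9, 1224.4 and 1080.1 to 333.3, 355.1 and 298.3 (-1.68, SE 0.11). TNFSF10, the death ligand TRAIL, read 591.8, 950.1 and 296.7 against 1.2, 0.1 and 6.0, the wide parental spread again with array 2 highest and array 3 lowest.

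PLSCR1, another scramblase, rose from 227.4, 208.2 and 193.2 to 516.3, 489.3 and 457.3 (log2 difference 1.16, SE 0.10) and DTX3L, a ubiquitin ligase, from 446.4, 519.8 and 380.7 to 1119.2, 1052.2 and 1018 (1.22, SE 0.12). SP110, a nuclear body protein, rose by 0.87 (SE 0.11) and WARS1, a tryptophanyl-tRNA synthetase, by 0.60 (SE 0.09, limma adjusted p = 2.08e-04). On parental array 2, 27 of the 36 genes were highest, and on parental array 3 26 were lowest (32.2% and 36.8% of all genes). The motif of the response element stood in 20 of the 32 of these genes that have a promoter window. Without probe set types prone to cross-hybridise, 27 of these genes were tested, of which 7 rose and 11 fell.

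Ligands, receptors and other parts of the signalling and sensing pathway were read from a list of 36, of which 28 were tested. In this list 11 fell (39.3%, against 32.9% of all genes), 6 rose (21.4%, against 33.9%) and 11 did not pass. The median log2 difference of the list was -0.17. All 6 of its interferon ligands had a probe set, and none passed the filter on low signal. The receptor chain IFNAR1 fell slightly, from 156.7, 147.6 and 151.5 to 126.4, 119.0 and 122.3 (-0.28, SE 0.08, limma adjusted p = 0.017). The other chain, IFNAR2, read 240.5, 211.3 and 195.4 against 156.9, 257.0 and 202.1, with overlapping groups (adjusted p = 0.66). IFNLR1, the receptor of interferon lambda, fell from 135.7, 120.9 and 121.8 to 18.9, 32.6 and 19.3 (-1.86, SE 0.14), and its partner chain IL10RB rose by 0.30 (SE 0.10).

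RIGI, a cytoplasmic RNA sensor that is itself induced by interferon, fell from 1370.6, 1592.4 and 1342.7 to 553.5, 464.1 and 507.1 (log2 difference -1.47, SE 0.11, limma adjusted p = 2.35e-06). The feedback inhibitor SOCS3 fell from 450.1, 561.4 and 339.8 to 180.1, 242.7 and 168.8 (-1.12, SE 0.19) and SOCS1 from 131.5, 186.7 and 105.2 to 70.8, 75.8 and 81.8 (-0.74, SE 0.17), a change no larger than its parental range. TICAM1, the adaptor of TLR3, rose by 1.13 (SE 0.15), TLR3 by 0.89 (SE 0.17) and STING1, the adaptor of DNA sensing, by 0.36 (SE 0.10). In this list 15 of 28 genes were highest on parental array 1, 11 were highest on parental array 2 and 17 were lowest on parental array 3. The shares over all genes were 32.9%, 32.2% and 36.8%. Unlike the members, this list was thus most often highest on array 1. The count of falls rested partly on parental replicate 1, without which 7 fell. The motif of the response element stood in 4 of the 29 genes of this list that have a promoter window.

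**Figure D4:**
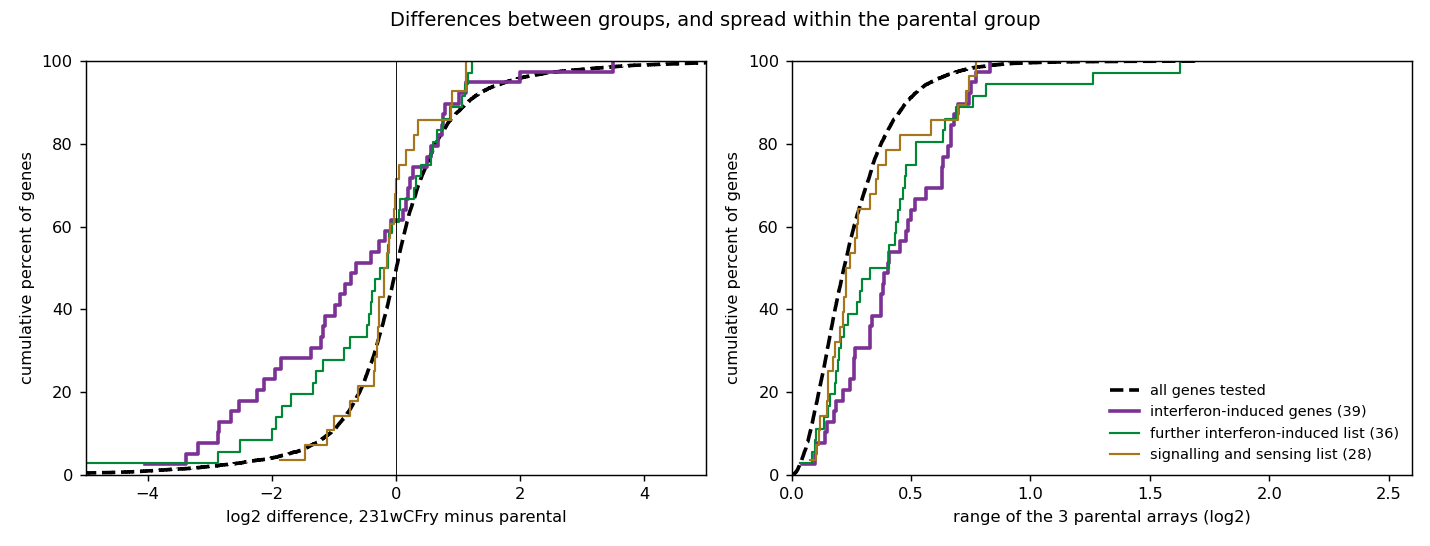
Cumulative percent of genes by log2 difference between groups (left, drawn from -5 to 5) and by the range of the 3 parental arrays (right, log2 scale), for all 13606 genes tested, the 39 interferon-induced genes, 36 genes of the further interferon-induced list and 28 genes of the signalling and sensing list. The curve of the 39 genes lies left of that of all genes below 0 in the first panel (medians -0.64 and 0.01) and right of it in the second (medians 0.40 and 0.22).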

How the data were processed

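The authors deposited signal intensity values made with MAS5, per the submitters' processing notes, on a linear scale and with 1 array per sample. The MAS5 version is not given in the sources used here. Per the labels' protocols, RNA came from cultures at 70% confluence and 40 ng was amplified with a NuGEN kit. MAS5 subtracts mismatch signal, so ratios of dim values are unstable. From these values log2(signal + 16) was computed, which understates changes of dim genes, with no further normalization. Probe sets with a mean at or above the 40th percentile (a signal of 5.62) were tested with limma 3.58.1 in R 4.3.3, 3 arrays against 3, with Benjamini-Hochberg adjustment at 0.05. Each gene was read by its tested probe set with the highest mean. Probe sets naming several genes were left out, 2 of them naming a member.

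The members, lists, role groups and motifs were chosen with earlier results of these data known. All 40 members were to be named, with values per array where a group's mean reached 100 and summaries otherwise, and from each further list up to 4 genes a direction with the smallest p and a mean of at least 100, with both IFNAR chains. A gene of the signalling list is not reported here. The fit was tested on simulated data. The rule gave OAS1 and IFI6 no values per array; theirs were added after seeing them. The filter was set to the log2 scale after its counts on both scales had been seen. Alternatives changed pseudocount, filter, scaling, probe sets, variance model, replicate block and arrays. Figures used matplotlib 3.10.9 in Python 3.11.15.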

Additional observations from a re-analysis of the deposited data

How the results depend on the processing

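A total of 17 alternative fits were run, 1 of them, the filter on the mean of linear signals, chosen after seeing the data; it left 10 members risen and 21 fallen. Over them, 9 to 11 members rose and 15 to 22 fell, the 15 coming without probe set types prone to cross-hybridise, where 31 members remained to be tested. Of 651 gene values under an alternative, 635 kept their direction and their side of the threshold, 7 lost and 6 gained a call, and 3 changed sign, all of genes without a call: ISG20 (-0.023) and IFIH1 (-0.034) without parental replicate 3, and IFI6 (-0.024) without the second array labelled 231wCFry. Leaving out each array in turn, these log2 differences ran up to 0.39 for ISG20, 0.28 for IFIH1 and 0.38 for IFI6. Dropping the cross-hybridising types moved the median to -0.28, the rises in the further interferon-induced list to 7, and all probe sets called to 6227 higher and 6678 lower, since fewer were tested. Averaging the probe sets of a gene gave a median of -0.39. Leaving out 1 array in turn gave 7 to 11 falls in the signalling list. With the replicate number as a block, 11 members rose and 21 fell. Correlations of deviations were 0.07, 0.06 and 0.20 for numbers 1, 2 and 3, the last being the highest of any pairing. Parental array 1, however, matched array 2 of the other group best, at 0.11. Whether the numbers pair the samples is thus uncertain. No scaling moved the median of all genes by over 0.1. With 3 arrays a group, signals near the median of all probe sets (CXCL10, CXCL11) leave small differences undetectable.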
